A study of Mus musculus with 9 samples.

Results

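The genes described here are 10 feedback inhibitors of the ERK and other MAP kinase pathways, Dusp1, Dusp4, Dusp5, Dusp6, Dusp8, Dusp10, Spry2, Spry4, Spred1 and Spred2, out of 54876 genes in the expression table. They were taken by gene symbol, and each symbol matched 1 entry. The set was drawn up with the values of all 3 media already known, so the members' levels and differences between media are given as descriptions, without p-values. RNA came from MIN6 cells, a mouse insulinoma line that stands in for pancreatic beta cells and whose strain is labelled C57BL/6, cultured for 24 h in medium with low, standard or high arginine. These media held 0.1, 1 and 20 times the standard arginine concentration, with 3 libraries each, 9 in all, and no other agent is named in the labels. The members lie on 10 different chromosomes. The cells are an established tumour line and not primary islet cells.

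MAP kinase cascades carry signals from growth factor receptors, nutrients and stress to the nucleus, and ERK activity in beta cells follows glucose and growth factors. Active ERK raises the transcription of its own brakes. These are dual-specificity phosphatases (DUSPs), which remove phosphates from MAP kinases, and the Sprouty and SPRED proteins, which hold back signalling between receptor, RAS and RAF. Among the phosphatases, DUSP6 acts on ERK in the cytoplasm and DUSP5 on ERK in the nucleus, DUSP1 and DUSP4 are nuclear enzymes that also act on other MAP kinases, and DUSP8 and DUSP10 act mainly on JNK and p38.

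The libraries held 21550637 to 26300872 reads in genes. Values are FPKM as deposited, that is, fragments scaled to gene length and to sequencing depth, so levels of different genes can be compared per length. Of the 10 beta cell markers listed, 8 had a mean of at least 1 FPKM, with Ins2 at 50200 FPKM over all libraries, while Slc2a2, the GLUT2 glucose transporter, was close to absent at 0.0103 FPKM and Ucn3 averaged 0.753 FPKM. The delta and PP cell list, mostly Sst, summed to 8720 to 11300 FPKM in low, 5430 to 6210 in standard and 5720 to 5910 in high arginine. The alpha cell list, mostly Ttr, summed to 260 to 341, 890 to 991 and 892 to 901 FPKM in the same order. The part of such cells in the results was not tested. Stromal, endothelial, immune and acinar or ductal markers each summed to less than 1 FPKM in every library.

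In low arginine Dusp6, Dusp4, Spry2, Dusp8 and Dusp1 were higher than in standard medium and Dusp10 was lower, with no overlap between the libraries of the 2 media, while Dusp5, Spry4, Spred1 and Spred2 overlapped. Across all genes tested 65.4% did not overlap between these media, 32.0% higher and 33.4% lower. All 10 genes were above the filter of 1 FPKM in every library of every medium. In the limma fit over all 12300 genes tested, 6 of the 10 had a Benjamini-Hochberg adjusted p under 0.05, 5 higher and 1 lower. Among all genes tested 62.2% were called, 30.3% higher and 31.9% lower, so the members were called about as often as genes in general, and nothing is read from their count. Their median log2 change was 0.25, against 0.00 for all genes tested. In TPM the median of all genes was 0.12 and 61.6% of calls were higher, against 48.7% in FPKM. In bulk RNA, fewer cells that express a gene and less RNA per cell cannot be told apart.

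**Figure D1:**
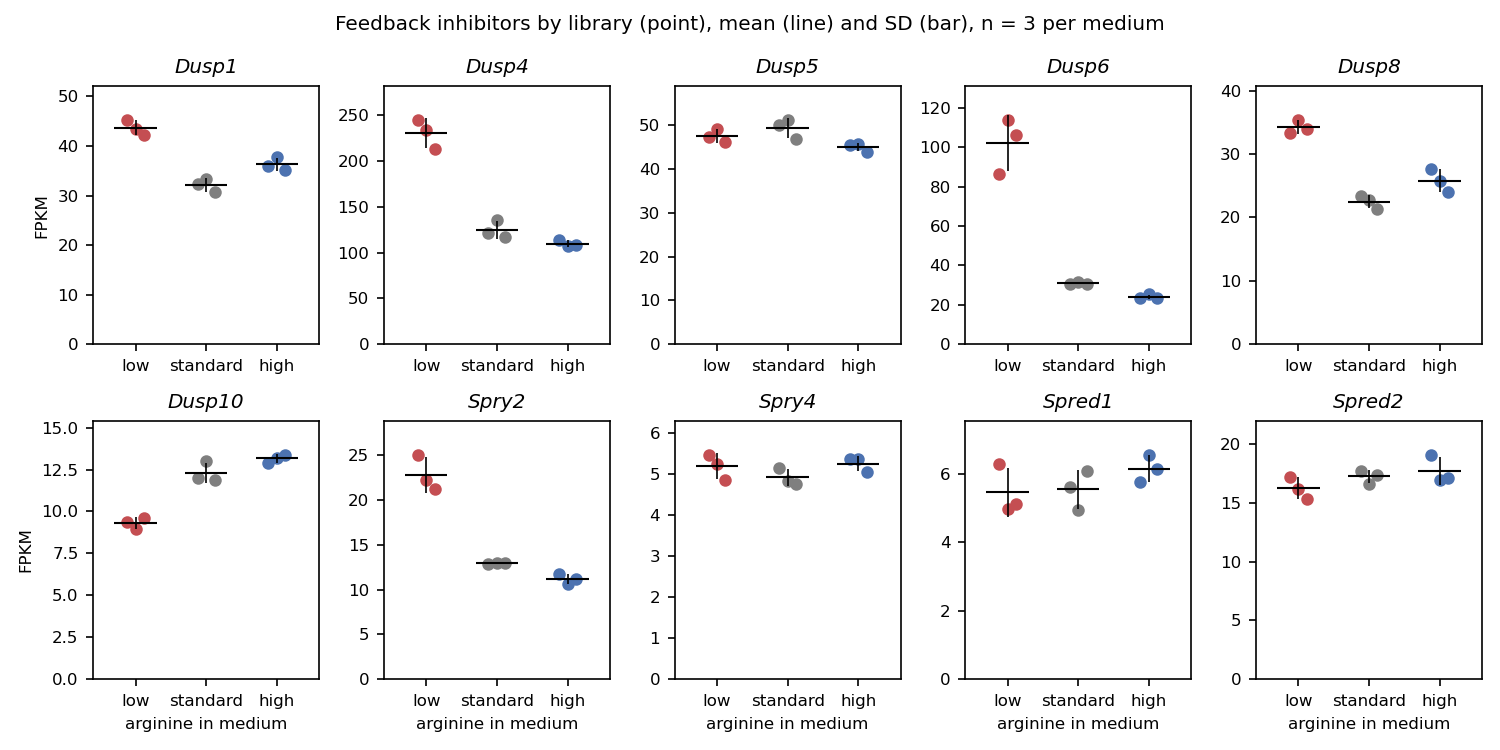
Level of each feedback inhibitor in FPKM (vertical axis, from 0) in low, standard and high arginine medium (horizontal axis). Points are libraries, lines are means and bars are SD of 3 libraries. Dusp6, Dusp4 and Spry2 step down from low to high arginine without overlap, Dusp1 and Dusp8 are lowest in standard medium, and Dusp10 is lowest in low arginine.

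Dusp6 (ENSMUSG00000019960, GRCm38 chr10:99263231-99267489, plus strand) had the largest difference of the 10 in low against standard arginine. Its level was 86.3, 114 and 106 FPKM in the low arginine libraries, 30.6, 31.6 and 30.6 FPKM in the standard and 23.5, 25.3 and 23.4 FPKM in the high arginine libraries. The 3 media did not overlap, and low arginine replicate 1 lay below the other two of its group. The mean was 102 ± 14.1 FPKM in low arginine, against 30.9 ± 0.606 FPKM in the standard medium (SD, n = 3 each), a ratio of 3.3 and a log2 change of 1.68 (SE 0.09) on the log2(FPKM + 1) scale. By this change it ranked 44 among all 12300 genes, counted from the highest. Between 7097 and 9814 reads lay behind it in each low arginine library, and 2054 to 2302 in each standard library.

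Dusp4 (ENSMUSG00000031530, chr8:34807297-34819894, plus strand) was the most abundant member in every medium. It stood at 245, 234 and 213 FPKM in low, 121, 136 and 117 FPKM in standard and 114, 107 and 108 FPKM in high arginine. Again each medium kept apart from the next. The mean of 231 ± 16.4 FPKM in low arginine was 1.86 times the 124 ± 9.95 FPKM of the standard medium (SD, n = 3 each), with a log2 change of 0.89 (SE 0.07).

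Spry2 (ENSMUSG00000022114, chr14:105891947-105896819, minus strand), which interferes with growth factor receptor signalling upstream of RAS, followed the same order. Its values were 25.1, 22.2 and 21.2 FPKM in low, 12.9, 13.0 and 13.0 FPKM in standard and 11.7, 10.6 and 11.2 FPKM in high arginine. The low arginine libraries were 1.76 times the standard ones on average, with a log2 change of 0.77 (SE 0.07). Among all genes tested, 2.37% were higher in low than in standard and higher in standard than in high arginine without overlap at either step, and Dusp4, Dusp6 and Spry2 were the 3 members among them. The reverse order was found in 3.48% of all genes and in 0 members. Because the members were chosen with these values known, nothing is read from such counts. The step of Dusp4, Dusp6 and Spry2 from standard to high arginine was small beside the step from low to standard.

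Promoter sequence was at hand for 8 of the 10 members in RefSeq (GRCm38.p6), and Dusp4 and Spry4 are not shown. The stretches printed are the 250 bases before the RefSeq start, 5′ to 3′ on the gene's strand, for some of the members. Capitals mark the cAMP response element core TGACG and the ETS core GGAA on either strand, so that the full element TGACGTCA appears as 8 capitals. The first pair are members whose level was lower at each higher arginine concentration, Dusp6 at chr10:99262981-99263230 on the plus strand and Spry2 at chr14:105896820-105897069 on the minus strand.

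Dusp6: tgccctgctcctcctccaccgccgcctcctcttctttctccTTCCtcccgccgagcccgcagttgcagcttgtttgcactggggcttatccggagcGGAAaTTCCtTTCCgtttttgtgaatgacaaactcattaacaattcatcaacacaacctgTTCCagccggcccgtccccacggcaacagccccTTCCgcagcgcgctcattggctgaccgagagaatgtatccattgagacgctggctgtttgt

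Spry2: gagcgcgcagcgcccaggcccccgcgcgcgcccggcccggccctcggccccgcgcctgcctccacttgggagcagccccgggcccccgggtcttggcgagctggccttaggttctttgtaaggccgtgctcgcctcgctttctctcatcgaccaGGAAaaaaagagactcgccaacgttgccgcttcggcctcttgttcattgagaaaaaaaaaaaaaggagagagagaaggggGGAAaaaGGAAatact

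The Dusp6 window held 6 matches to the ETS core and the Spry2 window 3, and neither held the cAMP response element core. ETS factors are known targets of ERK. GGAA was found in 6 of the 8 member windows and in 93.4% of all 32851 windows of this length, so a match is common.

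Dusp1 (ENSMUSG00000024190, chr17:26505590-26508519) and Dusp8 (ENSMUSG00000037887, chr7:142079490-142095843), both on the minus strand, had another order, with the lowest levels in standard medium. Dusp1 was at 45.3, 43.4 and 42.3 FPKM in low, 32.4, 33.3 and 30.7 FPKM in standard and 36.0, 37.7 and 35.1 FPKM in high arginine. Dusp8 was at 33.3, 35.4 and 33.9 FPKM in low, 23.3, 22.8 and 21.3 FPKM in standard and 27.7, 25.7 and 24.0 FPKM in high arginine. For both genes the standard libraries lay below those of the other media without overlap, an order found in 4.19% of all genes tested. Standard medium lay above both others in 3.5% of all genes and in 0 members, and nothing is read from these counts either. The log2 change in low against standard arginine was 0.43 (SE 0.06) for Dusp1 and 0.58 (SE 0.06) for Dusp8. In high against standard arginine it was 0.17 (SE 0.06) for Dusp1 and 0.19 (SE 0.06) for Dusp8, and neither was called. GENCODE M21 draws Dusp1 longer than the expression table does, to position 26562128 rather than 26508519. That longer gene shares 11 exonic bases with Ergic1, which is transcribed in the opposite direction. It was not tested whether the Dusp1 counted here includes these bases. Whether counting kept the directions apart is not stated, so reads from such overlaps are uncertain.

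The same windows of this second pair are Dusp1 at chr17:26508473-26508722 and Dusp8 at chr7:142095285-142095534, both on the minus strand. For these genes the RefSeq start lies downstream of the gene start in the expression table, so the Dusp1 window overlaps the gene span given above in part and the Dusp8 window lies wholly inside it. They are shown because they were the members whose window held the full cAMP response element, the site bound by CREB and related factors. Since they were picked by this element, nothing is read from its presence in both.

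Dusp1: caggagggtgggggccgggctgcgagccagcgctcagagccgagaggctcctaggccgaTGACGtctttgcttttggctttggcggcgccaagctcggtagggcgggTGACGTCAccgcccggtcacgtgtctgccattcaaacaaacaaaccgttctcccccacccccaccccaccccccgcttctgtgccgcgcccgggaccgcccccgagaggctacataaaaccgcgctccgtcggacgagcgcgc

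Dusp8: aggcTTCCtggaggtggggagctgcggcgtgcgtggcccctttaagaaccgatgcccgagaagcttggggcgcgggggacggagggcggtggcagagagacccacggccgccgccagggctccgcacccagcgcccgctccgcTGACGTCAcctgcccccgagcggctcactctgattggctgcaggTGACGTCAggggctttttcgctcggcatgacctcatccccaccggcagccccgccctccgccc

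Dusp1 had 1 full element, which began 143 bases before the start, and Dusp8 had 2, at 107 and 63 bases. TGACGTCA occurred in 1.55% of all windows, and its core TGACG, which it contains, in 17.8% of all windows and in 4 of the 8 member windows, those of Dusp1, Dusp5, Dusp8 and Spred2. A match describes letters in the window and is not evidence of binding. The AP-1 motif TGANTCA and the ATF4 composite motif TGATGNAA, present in 6.75% and 3.45% of all windows, were in 0 of the 8. The CArG box of serum response factor, in 1.47% of all windows, was in the Dusp5 window alone, where it occurred 2 times.

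Dusp10 (ENSMUSG00000039384, chr1:184013302-184075636, plus strand), a phosphatase of p38 and JNK, was the member that was lower in low arginine. It had 9.4, 8.95 and 9.6 FPKM in low, 12, 13.0 and 11.9 FPKM in standard and 12.9, 13.2 and 13.4 FPKM in high arginine. The low arginine libraries lay below all others, while standard and high arginine overlapped. The means of 9.32 ± 0.329 FPKM in low arginine and 12.3 ± 0.648 FPKM in the standard medium (SD, n = 3 each) gave a log2 change of -0.37 (SE 0.06).

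The remaining 4 genes were close to level across the media. Dusp5 (ENSMUSG00000034765, chr19:53529109-53542431, plus strand) had 47.2, 49.1 and 46.0 FPKM in low, 50.1, 51.2 and 46.8 FPKM in standard and 45.4, 45.6 and 43.8 FPKM in high arginine. Its high arginine libraries were just below those of both other media, and low and standard arginine overlapped. The 95% interval of its log2 change in low against standard arginine was -0.18 to 0.06. In high against standard arginine the change of Dusp5 was -0.13 (SE 0.05), with an interval of -0.25 to -0.01, and was not called. An annotated antisense gene shares 547 exonic bases with Dusp5, so its reads may be counted with it.

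Spry4 (ENSMUSG00000024427, chr18:38586268-38601268, minus strand), another Sprouty gene, ranged from 4.85 to 5.47 FPKM in low, 4.76 to 5.15 FPKM in standard and 5.05 to 5.35 FPKM in high arginine. Spred1 (ENSMUSG00000027351, chr2:117121374-117182279, plus strand), whose protein brings the RAS inactivator neurofibromin to the membrane, ranged from 4.98 to 6.29, 4.95 to 6.1 and 5.76 to 6.57 FPKM in the same order. Spred2 (ENSMUSG00000045671, chr11:19924375-20024026, plus strand), of the same family, ranged from 15.3 to 17.2, 16.6 to 17.7 and 16.9 to 19.1 FPKM. The libraries of all 3 media overlapped for each of these genes. In low against standard arginine the 95% interval of the log2 change was -0.07 to 0.20 for Spry4, -0.22 to 0.18 for Spred1 and -0.23 to 0.06 for Spred2, and each interval includes 0. These small differences depended on scaling. In TPM, Spry4 was called higher at 0.19, and the sign changed without a call for Dusp5, Spred1 and Spred2.

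**Figure D2:**
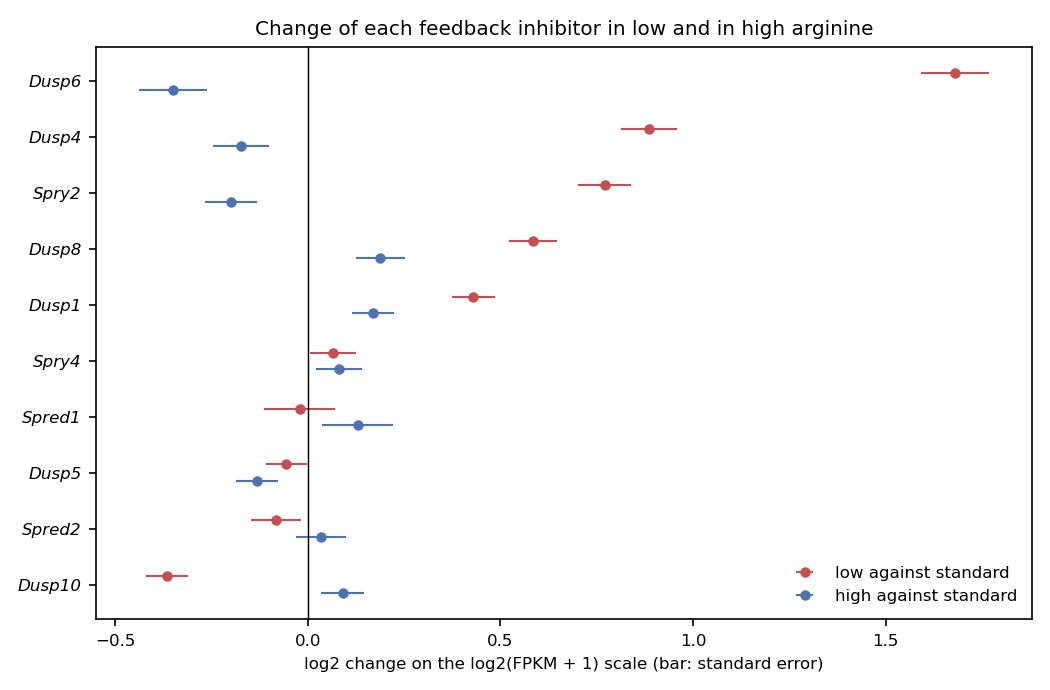
Log2 change of each gene (rows) in low against standard arginine and in high against standard arginine (horizontal axis, log2(FPKM + 1) scale). Points are estimates from the limma fit and bars their standard errors. Dusp6 is at 1.68 in low and -0.35 in high arginine; Dusp1 and Dusp8 are above 0 in both. The comparisons share the standard libraries.

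The composition of the phosphatases also differed. Summed over the 6 DUSP members, levels came to 467 ± 17.3 FPKM in low, 272 ± 15 FPKM in standard and 254 ± 6.21 FPKM in high arginine (SD, n = 3 each). Dusp6 made up 21.8 ± 2.88% of that sum with low, 11.4 ± 0.43% with standard and 9.47 ± 0.446% with high arginine. Dusp5 accounted for 10.2 ± 0.041%, 18.2 ± 0.4% and 17.7 ± 0.215% in the same order, and Dusp4 for 49.3 ± 2.78%, 45.7 ± 1.22% and 43.2 ± 0.994%. The 4 Sprouty and SPRED genes summed to 49.8 ± 3.95 FPKM in low, 40.7 ± 1.1 FPKM in standard and 40.3 ± 1.49 FPKM in high arginine, with Spry2 at 45.9 ± 0.497%, 31.8 ± 0.979% and 27.7 ± 0.798% of the sum.

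**Figure D3:**
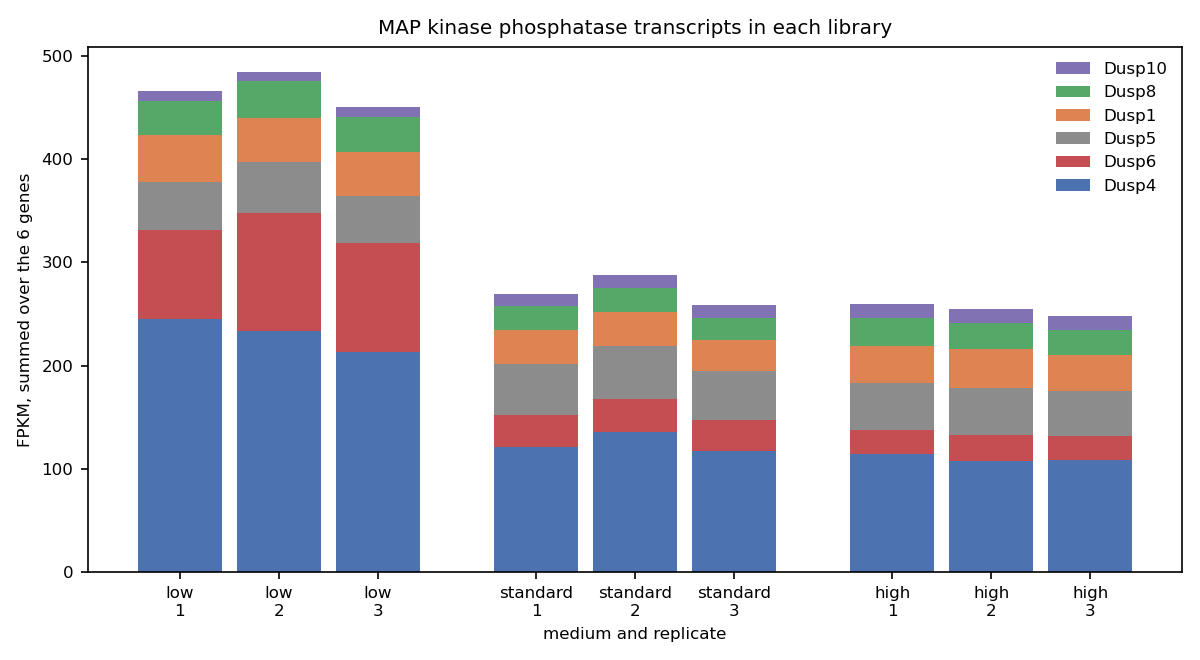
FPKM of the 6 DUSP members stacked for each library (vertical axis, from 0), grouped by medium. The low arginine libraries reach 450 to 485 FPKM and the others 248 to 288 FPKM, and the Dusp6 band is widest in low arginine.

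The order of levels changed with the medium. In low arginine it ran Dusp4, Dusp6, Dusp5, Dusp1, Dusp8, Spry2, Spred2, Dusp10, Spred1 and Spry4, and only the last neighbours, Spred1 and Spry4, overlapped between libraries. In standard medium Dusp6, at 30.9 FPKM, came after Dusp4, Dusp5 and Dusp1 and overlapped Dusp1 at 32.2 FPKM, Spry2 overlapped Dusp10, and Spred1 overlapped Spry4. In high arginine Dusp6, at 24.1 FPKM, came after Dusp8 too and overlapped it at 25.8 FPKM, and the other neighbours stood apart.

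In high against standard arginine limma called 0 of the 10 members, beside 0.309% of all genes, 38 in number, 0.138% higher and 0.171% lower. At an unadjusted p under 0.05 there were 6 members and 14.3% of all genes. Means in high and standard arginine were 24.1 ± 1.07 and 30.9 ± 0.606 FPKM for Dusp6 (log2 change -0.35, SE 0.09), 110 ± 3.95 and 124 ± 9.95 FPKM for Dusp4 (-0.17, SE 0.07) and 11.2 ± 0.593 and 12.9 ± 0.0545 FPKM for Spry2 (-0.20, SE 0.07; SD, n = 3 each). Libraries of these media did not overlap for Dusp1, Dusp4, Dusp5, Dusp6, Dusp8 and Spry2, 2 of them higher and 4 lower. Among all genes 18.5% did not overlap, 10.4% higher and 8.14% lower. The members were chosen with these values known, so nothing is read from either count of members. The fit took the spread of each gene from all 3 media together. Low arginine libraries therefore also enter the SE of high against standard arginine. Without low arginine replicate 1 Dusp6 was called, as 1 of 24 genes called lower, beside 18 called higher, among 12300 tested. The count over all genes was 0 without standard replicate 2 or high replicate 3, 1 without high replicate 2, 10 without standard replicate 1, 20 without high replicate 1 or low replicate 2, 13 without low replicate 3 and 61 without standard replicate 3.

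In high against low arginine Dusp6 was at -2.03 (SE 0.09), rank 19 among all genes counted from the lowest, Dusp4 at -1.06 (SE 0.07) and Spry2 at -0.97 (SE 0.07). Dusp8 and Dusp1 were at -0.40 (SE 0.06) and -0.26 (SE 0.06), and Dusp10 at 0.46 (SE 0.06). Limma called these 6 members, 1 higher and 5 lower, beside 61.5% of all genes, 32.3% higher and 29.2% lower. These 6 and Dusp5, 1 higher and 6 lower, did not overlap between the media, beside 68.4% of all genes, 35.3% higher and 33.1% lower. Dusp5 was at -0.08 (SE 0.05) and was called only under TPM, at -0.20, and quantile normalization, at -0.21, while Spred1, at 0.15, was called only without low arginine replicate 1, at 0.24.

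Other genes of these pathways were read from 9 lists written from textbook knowledge, with 200 genes that are not members. Of these, 149 were tested, and in low against standard arginine 62 rose and 39 fell, 67.8% of them, close to the 62.2% of all genes. All adjusted p-values that follow are from limma with Benjamini-Hochberg adjustment over all 12300 genes.

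Among 8 other MAP kinase phosphatases 6 rose and 2 fell in low arginine (6 and 1 in TPM), with a median log2 change of 0.27. Ppm1b and Ppm1a, which encode metal-dependent phosphatases of stress kinases, averaged 36.1 and 9.98 FPKM in low, against 26.9 and 7.54 FPKM in standard arginine (adjusted p 7.22e-05 and 0.000166). Ppm1d rose by 0.39 (SE 0.09, adjusted p 0.00267). Ptprr, a tyrosine phosphatase of ERK, fell to 0.801 ± 0.0761 FPKM in low, against 1.8 ± 0.238 FPKM in standard arginine (adjusted p 7.05e-05), and had 2.71 ± 0.12 FPKM in high arginine. Of 10 atypical DUSPs, small enzymes without the kinase-binding domain, 1 rose and 5 fell, but in TPM 4 rose and 4 fell. Dusp23 was at -0.91 (SE 0.10), Dusp18 at -0.57 (SE 0.07) and Dusp14 at -0.43 (SE 0.09), and Dusp12 rose by 0.44 (SE 0.11).

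Of 17 other brakes on receptors and RAS, 7 rose, 3 fell and 7 did not pass, with a median of 0.08. Spry1, a further Sprouty gene, rose to 3.07 ± 0.457 FPKM in low, against 1.91 ± 0.0563 FPKM in standard arginine (adjusted p 0.000922), and had 1.49 ± 0.16 FPKM in high arginine. Dab2ip, a RAS GTPase-activating protein, rose by 0.55 (SE 0.07, adjusted p 7.84e-05). Pebp1, the RAF kinase inhibitor protein, fell to 90.9 ± 15.1 FPKM in low, against 196 ± 35.3 FPKM in standard arginine (adjusted p 8.52e-05), and Sh2b3, an adaptor that dampens cytokine signalling, was at -0.48 (SE 0.07) but overlaps Atxn2.

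Upstream of RAS, 5 of 11 ligands rose and 4 fell (5 and 2 in TPM). Hbegf, a ligand of the EGF receptor, rose to 64.4 ± 5.25 FPKM in low, against 25.6 ± 1.13 FPKM in standard arginine (adjusted p 1.19e-07), Vegfa to 248 ± 7.63 against 105 ± 5.6 FPKM (adjusted p 4.36e-08) and Fgf9 to 11.4 ± 0.315 against 7.25 ± 0.124 FPKM (adjusted p 4.92e-06; SD, n = 3 each). Pdgfa rose by 0.67 (SE 0.07) but shares 813 exonic bases with an antisense gene, so its value is uncertain. Of 8 receptor tyrosine kinases 3 rose and 1 fell (6 and 0 in TPM), with Igf1r at 0.55 (SE 0.11), Fgfr2, whose exons partly coincide with Ctbp2, at 0.52 (SE 0.08), Alk at 0.29 (SE 0.09) and Ntrk2 at -0.23 (SE 0.06). Alk lost its call without low replicate 1 or 2 or standard replicate 2 or 3, and Ntrk2 in TPM.

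Of 22 adaptors, exchange factors and RAS GTPases 10 rose, 3 fell and 9 did not pass. Irs2, the insulin receptor substrate, rose by 1.07 (SE 0.07, adjusted p 5.17e-07), and Rap1b, a small GTPase, by 0.54 (SE 0.06). Shc1, an adaptor of growth factor receptors, was at -0.89 (SE 0.05, adjusted p 2.34e-07) and Rras at -0.98 (SE 0.08). Among 21 genes of the ERK cascade 9 rose, 6 fell and 6 did not pass, with a median of 0.04. Map2k1 and Map2k2, which encode the MEK kinases, were at 0.17 (SE 0.06, adjusted p 0.0243) and -0.29 (SE 0.08, adjusted p 0.00815). Mapk3, which encodes an ERK kinase, was at -0.21 (SE 0.07, adjusted p 0.0292). The calls of Map2k1 and Mapk3 were lost without low replicate 2 or 3 or standard replicate 1, that of Map2k1 also without standard replicate 3, and that of Mapk3 also without standard replicate 2 and with TPM, quantile normalization or no filter on low values. Fitting only the 2 groups also ended the call of Map2k1. The calls with the smallest p were Map2k5 at 0.57, Mknk1 at 0.63, Lamtor2, a scaffold subunit, at -0.73, and Mknk2 at -0.53. Of 27 genes of the JNK and p38 arms 8 rose and 8 fell (11 and 3 in TPM), among them Mapk10, a JNK gene, at 0.64 (SE 0.07), Mapkapk2, a p38 target kinase, at 0.46 (SE 0.06), Map3k11, which overlaps Pcnx3, at -0.58 (SE 0.07) and Map3k20 at -0.47 (SE 0.08).

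**Figure D4:**
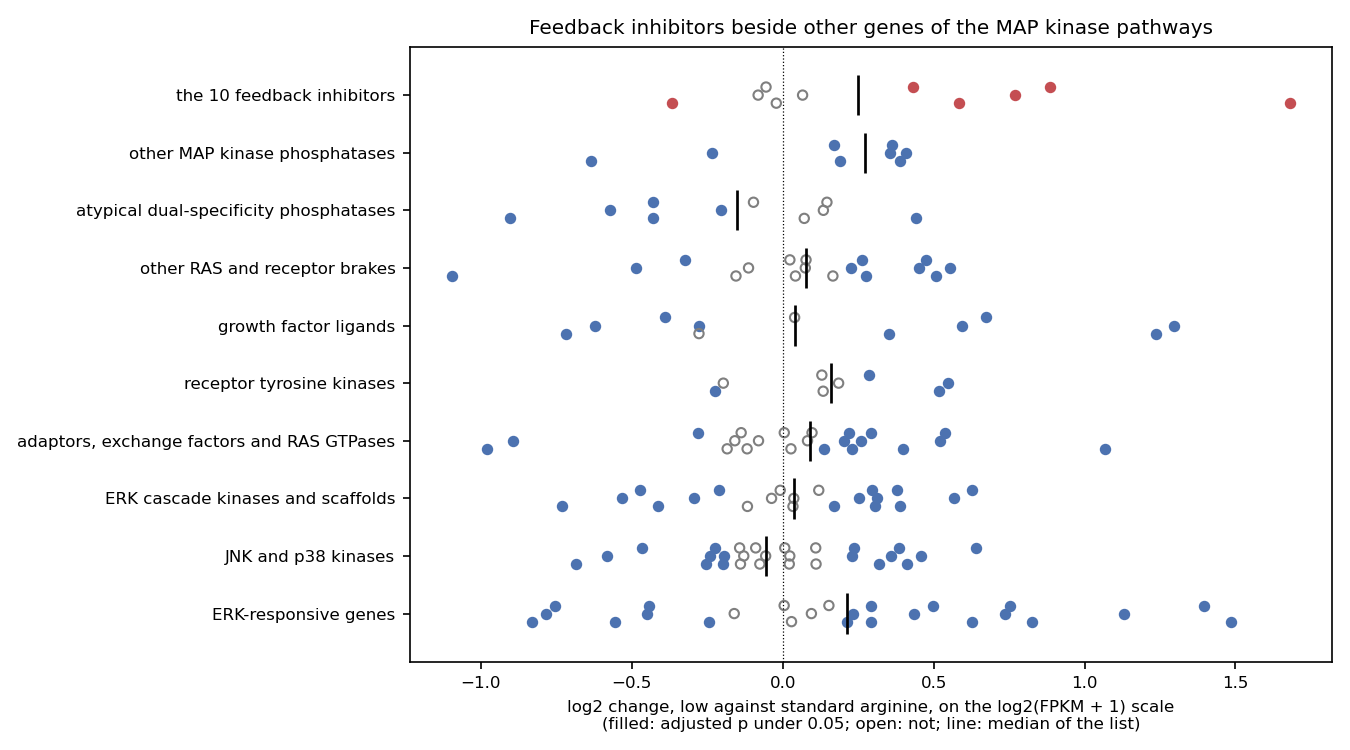
Log2 change in low against standard arginine (horizontal axis, log2(FPKM + 1) scale) of the 10 feedback inhibitors and of the tested genes of each list (rows). Filled points passed an adjusted p of 0.05 in limma, open points did not, and vertical lines are medians. The medians are 0.25 for the feedback inhibitors, 0.27 for other MAP kinase phosphatases, 0.21 for ERK-responsive genes and 0.04 for the ERK cascade.

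Transcripts known to follow ERK activity, listed with the ternary complex factors, went both ways in low arginine. Of 25 tested, 13 rose, 7 fell and 5 did not pass, a call share of 80% with a median of 0.21. Myc rose to 4.68 ± 0.533 FPKM in low, against 1.02 ± 0.0482 FPKM in standard arginine (adjusted p 1.49e-07), and Ier5, an immediate early gene, to 48.2 ± 1.45 against 21.5 ± 0.414 FPKM (adjusted p 5.92e-08; SD, n = 3 each). Junb rose by 1.40 (SE 0.10), but overlaps Prdx2 on the other strand, and Elk3, a ternary complex factor that overlaps Cdk17, was at -0.76 (SE 0.05). Singled out after their values were seen, the immediate early gene Egr1 was at -0.79 (SE 0.13, adjusted p 0.00047), Ier3 at -0.83 (SE 0.13, adjusted p 0.000241), Fos at 0.09 (SE 0.12, adjusted p 0.501), Etv5 at 0.50 (SE 0.07, adjusted p 8.64e-05) and Etv4 at 0.00 (SE 0.08, adjusted p 0.963).

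In high against standard arginine 1 of the 149 list genes passed and 21 had an unadjusted p under 0.05, a share of 14.1% beside 14.3% of all genes. That gene was Fgf1, a fibroblast growth factor, with 3.35 ± 0.184 FPKM in high and 2.19 ± 0.191 FPKM in standard arginine (SD, n = 3 each; adjusted p 0.0437), and 5 of its 16 alternatives kept the call, with an adjusted p of up to 0.222. It was not called without any 1 high arginine library, nor without standard replicate 1 or 2 or low replicate 2 or 3. In high against low arginine 38 list genes were higher and 51 lower, 59.7% of those tested. By list, higher and lower counts were 2 and 4 for other MAP kinase phosphatases (1 and 6 in TPM; Dusp16 at -0.37, SE 0.09), 5 and 1 for atypical DUSPs (4 and 5 in TPM), 3 and 7 for other brakes, 4 and 5 for ligands (Fgf1 at 1.17, SE 0.08) and 1 and 3 for receptors (0 and 4 in TPM; Insr at -0.30, SE 0.09, not called without low replicate 1, high replicate 2 or high replicate 3). They were 4 and 6 for adaptors and GTPases (4 and 10 in TPM; Mras at -0.61, SE 0.06), 5 and 7 for the ERK cascade (Mapk6 at 0.56, SE 0.06), 8 and 6 for the JNK and p38 arms (4 and 8 in TPM) and 6 and 12 for ERK-responsive genes (Klf4 at -0.84, SE 0.06).

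Across the 9 libraries, the gene outside the set with the profile most like each member's, by Pearson r of log2(FPKM + 1), was Klhdc1 for Dusp6 (0.999), Mri1 for Dusp4 (0.998), Dstyk for Spry2 (0.996), Ets2 for Dusp1 (0.993), Zfp592 for Dusp8 (0.993) and Slc39a8 for Dusp10 (0.995). For the level members it was Cacna1c for Spred2 (0.978), Cadm4 for Dusp5 (0.970), Tug1 for Spred1 (0.952) and Chd4 for Spry4 (0.943). This search and the counts that follow took only genes with a full symbol, not names such as Gm or Rik. The number of these that reached an r over 0.95 was 754 for Dusp6, 763 for Dusp4, 603 for Spry2 and 633 for Dusp10. It was 191 for Dusp8 and 101 for Dusp1, but 2 each for Dusp5 and Spred1, 3 for Spred2 and 0 for Spry4. The 9 libraries share the step between low arginine and the other media. Within the set, r was 0.990 between Dusp4 and Spry2, 0.975 between Dusp4 and Dusp6, 0.960 between Dusp1 and Dusp8, and -0.975 between Dusp10 and Dusp6. These correlations describe the same 9 libraries and carry no test. Tug1 overlaps Morc2a on the other strand.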

How the data were processed

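Groups and replicate numbers came from the sample titles, 3 libraries per medium; whether replicates were separate cultures is not stated, so p-values cover the spread between these libraries, which may be technical. The authors deposited FPKM per gene, and the submitters' processing notes name featureCounts 1.5.0-p3, HISAT2 2.0.5 and CASAVA 1.8. The kit was directional per the labels' protocols, but no source used here gives the strand setting. Those notes name mm9, but of 54409 gene IDs also found in GENCODE M21, 98.33% have its GRCm38 coordinates, so GRCm38 is used.

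Reads were rebuilt from FPKM and gene length (100% of values whole within 0.01) and served for depth and voom weights only. The library size behind FPKM was 1.05 to 1.08 times these reads in low, 0.962 to 1.02 in standard and 0.969 to 0.994 in high arginine, so a scale factor was already applied. Genes with at least 1 FPKM in at least 3 libraries were kept, 12300 in all. log2(FPKM + 1), which understates changes of low genes, was fitted with limma 3.58.1 in R 4.3.3, with group as the only term over all 9 libraries and a threshold of 0.05 on two-sided Benjamini-Hochberg adjusted p-values. The fit was tested on simulated data with independent noise and changes in few genes. That setting is unlike these data, so nothing about the calls is read from it. Replicate pairs differed by more than sampling noise (chi-square per degree of freedom 2.68 to 13.6).

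The members and the 9 lists were chosen with earlier results of these data known. Named genes were all members, up to 4 called genes per list and contrast with the smallest p and a mean of at least 1 FPKM in the higher group, Map2k1, Map2k2 and Mapk3, and 1 most alike gene per member. Promoters came from RefSeq, and protein sequences were not used here. Values of some listed genes are not reported here.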

Additional observations from a re-analysis of the deposited data

How the results depend on the processing

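Of 510 member log2 changes under 17 alternatives, 0 lost a call, 0 reversed with a call and 5 gained a call: Spry4 in TPM (low against standard arginine), Dusp6 without low replicate 1 (high against standard arginine), and Dusp5 in TPM and with quantile normalization and Spred1 without low replicate 1 (high against low arginine). The low against standard change of Dusp6 ran from 1.60 to 1.87, of Dusp4 from 0.84 to 1.12 and of Spry2 from 0.70 to 0.92. The count of called genes in high against standard arginine, 38, was 6 without a filter on low values, 0 with only the 2 groups compared, 74 with voom weights and 88 with a replicate block, and leaving out 1 library gave 0 to 61 genes and 0 to 1 members. The cause was not tested. Libraries with the same replicate number were not treated as pairs, so the main fit leaves out any spread shared by replicate number. Of 9 same-number pairs, 6 had a correlation of deviations over 0.1, and the values ran from -0.04 to 0.24. Pairs with different numbers ran from -0.26 to 0.14. The replicate block changed no member's call. Spry4 and Spry2 rested on the fewest reads, from 459 and 507 in a library.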
